A study of Mus musculus with 72 samples.

Results

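The replication-dependent histone genes are the genes of GENCODE vM1, on the mm9 build of the mouse genome, whose symbol starts with Hist1h, Hist2h, Hist3h or Hist4h. The rule found 70 genes, of 22370 genes in the table used here. It takes in 6 genes for linker histone H1, 20 for H2A, 19 for H2B, 12 for H3 and 13 for H4, and 3 of the 70 are annotated as pseudogenes. Chromatin of mouse embryonic fibroblasts (MEFs), embryonic stem cells (ESCs) and resting splenic B cells (rB) from C57BL/6 mice was examined by ChIP-seq with 6 antibodies in MEFs, 5 in ESCs and 5 in B cells. WT cells were Hmgn1+/+n2+/+, and DKO cells were Hmgn1-/-n2-/-, so they lack HMGN1 and HMGN2, both nucleosome-binding proteins. The ESCs were cell lines, and how many clones or animals stand behind each genotype is not given in the sources used here. Each antibody had 2 biological replicates of each genotype, which makes 64 peak lists, and no antibody was used in more than 1 cell type. The comparison asks where factors and histone marks lie at these genes, and whether that differs between WT and DKO cells.

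The replication-dependent histone genes supply the core and linker histones that package newly made DNA. They are transcribed during S phase, under NPAT at the histone locus body, and most of their mRNAs end in a stem-loop in place of a poly(A) tail. Many H2B genes have an octamer element in their promoter, a binding sequence of the POU factors OCT1, OCT2 and OCT4. H2A and H2B genes often lie head to head and share a short promoter region.

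The Hist1 cluster held 56 of the 70 genes, on chromosome 13 from 21807632 to 51298434. Its outermost gene, Hist1h2al, lies far from the rest. The Hist2 cluster had 10 genes on chromosome 3 from 96023839 to 96082924. The Hist3 cluster had 3 genes on chromosome 11, and Hist4h4 was the single gene of its group, on chromosome 6. The genes are short, with a median annotated length of 530.5 bp against 15427 bp over all genes, but Hist1h2be is annotated over 37383 bp. Peaks were assigned to a gene when they lay within 1000 bp of it. With these flanks the 70 genes formed 37 separate windows, so neighbouring genes often share a peak and are then not independent.

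The deposited lists hold peaks and no read counts. Fold enrichment is the ratio, given by the authors' caller, of the reads stacked at a peak's summit to the local background. The caller adds 1 to both before it takes the ratio. For 44 of the 64 lists the number of stacked reads could be solved from the fold enrichment and p. Their lowest background, a measure of depth, lay between 0.924 and 2.50 reads per position. All CTCF, Nanog and CEBPB lists, the DKO lists of IKAROS and OCT2, and 4 single lists were not among them, and their depth is unknown. An exact permutation test of 2 libraries against 2 cannot give a p below 0.333. Fold enrichment was therefore compared on the log2 scale with limma over all genes with a peak in all 4 libraries, and p was adjusted by the Benjamini-Hochberg method. Such p-values measure only the spread between these libraries. The targeted genes were looked up first. For H3K27ac, Hmgn2 showed 3 peaks per library in WT MEFs and 0 in DKO MEFs, and Hmgn1 showed 2 per WT library versus 4 and 5 in DKO. Peaks do not measure the transcripts of the deleted genes. All 10 fibroblast marker genes had an H3K27ac peak in every MEF library, and 10, 9, 9 and 9 of 10 stem cell markers had a Nanog peak in the ESC libraries. For IKAROS, 9, 9, 7 and 7 of 10 B cell markers had a peak in the B cell libraries, against at most 1 of 10 fibroblast markers.

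Promoters of some H2B and H2A genes carried the octamer ATTTGCAT. It was sought on both strands from 250 bases before the start of a gene to 50 after it, in the mm9 sequence. The octamer lay in 9 of 19 H2B and 7 of 20 H2A promoters, and in 0 of the 6 H1, 12 H3 and 13 H4 promoters. Over all 22370 genes 1.73% had it. The 16 genes hold only 10 distinct elements, since 6 of them serve a gene on either side. CCAAT, the binding sequence of NF-Y, was in every H1 and H2B promoter, in 19 H2A and in 11 H3 promoters, but in only 4 of 13 H4 promoters, and in 37.9% of all genes. TATAAA was found in 54.3% of the histone promoters and 13.4% of all promoters, and in each of the 5 families by between 41.7% and 66.7% of the genes. The following elements are shown because both OCT2 peaks of the histone genes lie over an octamer (first 2 lines), while the others have no OCT2 peak. Each line gives the strand that reads ATTTGCAT from 5′ to 3′, with the octamer in capitals and 16 bases on each side.
Hist1h2bc and Hist1h2ac, chr13:23775935-23775974, plus strand: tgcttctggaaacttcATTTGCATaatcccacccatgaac
Hist3h2bb-ps and Hist3h2a, chr11:58768052-58768091, minus strand: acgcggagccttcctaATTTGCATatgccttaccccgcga
Hist1h2bb, chr13:23838497-23838536, plus strand: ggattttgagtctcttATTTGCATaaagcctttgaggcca
Hist2h2be and Hist2h2ac, chr3:96024980-96025019, plus strand: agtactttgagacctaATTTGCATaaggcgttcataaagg
Hist2h2bb, chr3:96073559-96073598, plus strand: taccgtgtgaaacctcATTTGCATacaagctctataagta
Hist1h2ba and Hist1h2aa, chr13:24026166-24026205, minus strand: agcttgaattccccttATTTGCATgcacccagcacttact
The octamer lay at −117 bases from the start of Hist1h2bc, at −90 from that of Hist1h2bb and at −48 from that of Hist2h2be. In all 9 H2B promoters it read ATTTGCAT on the strand of the H2B gene.

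In MEFs most histone genes were marked by H3K27ac, the acetylation found at active promoters and enhancers. A peak lay at 57 of 70 histone genes in each WT library and at 55 in each DKO library. This is 81.4% and 78.6%, against 55.8% to 57.1% of all genes, although the windows of all genes are longer. Within 1000 bp of the gene start, a window of equal length for every gene, the shares were 77.1%, 77.1%, 75.7% and 74.3% for histone genes and 47.8% to 48.7% for all genes. The acetylated histone genes stood among unacetylated neighbours. Between the first and the last gene of each cluster, without the long stretch to Hist1h2al, lay 48 other protein-coding genes, and only 7, 6, 7 and 6 of them had an H3K27ac peak. No family was without the mark. In WT cells the peaks covered all 6 H1 genes, 14 of 20 H2A, 15 of 19 H2B, 11 of 12 H3 and 11 of 13 H4 genes.

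**Figure D1:**
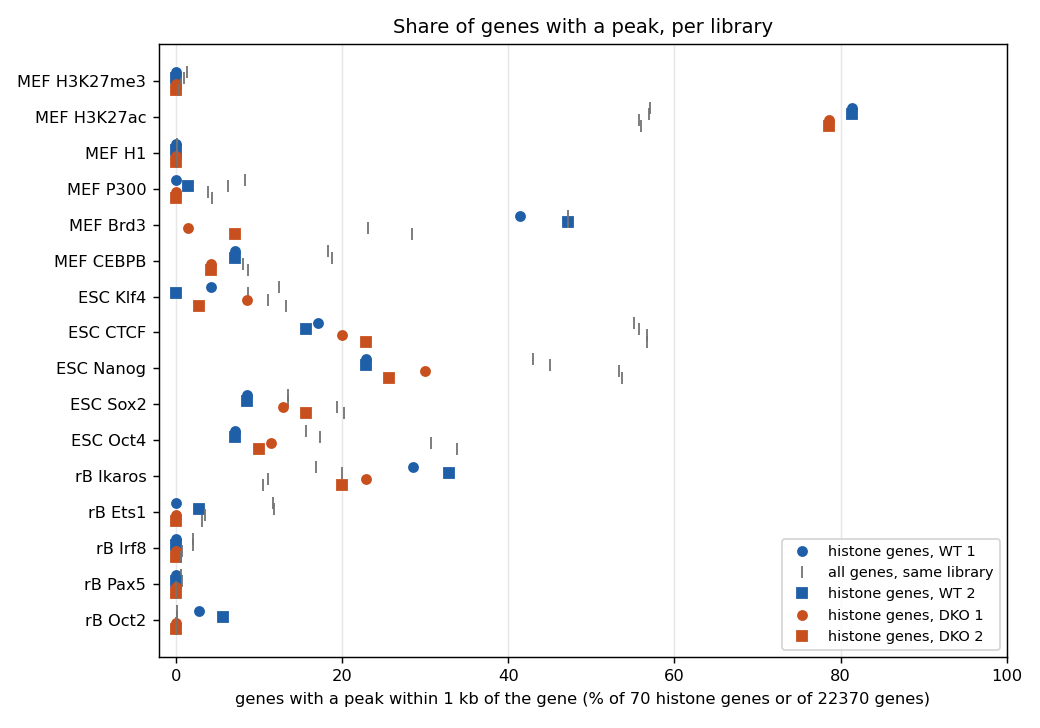
Share of genes with a peak within 1 kb of the gene, for each antibody (rows) and library (circles, replicate 1; squares, replicate 2; blue, WT; orange, DKO). Symbols give the percentage of the 70 histone genes and grey ticks that of all 22370 genes in the same library. Histone genes lie above the ticks for H3K27ac, with 57, 57, 55 and 55 genes, and for IKAROS, with 20, 23, 16 and 14.

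The median fold enrichment at the highest peak of a histone gene was 9.25 and 10.1 for WT libraries versus 9.83 and 8.88 for DKO libraries. Over all genes with a peak it was between 13.5 and 14.9, but their windows are longer and can hold more peaks. Equal windows were not compared for this value. The peaks of the histone genes rested on a median of 33 and 34 stacked reads in WT and 41 and 40 in DKO libraries. Of the linker histone genes, Hist1h1d, which encodes a somatic subtype, was the highest, with a fold enrichment of 21.7 and 17.8 in WT versus 18.1 and 15.2 in DKO cells. Hist1h1t, which encodes the testis-specific H1t, was the lowest, at 3.29 and 2.85 in WT cells and without a peak in DKO cells. Both the top H2B and the top H3 gene, Hist1h2bb and Hist1h3c, share 1 peak of 25.5 and 20.9 in WT versus 16.99 and 22.3 in DKO cells. The DKO values lie on either side of the lower WT value. Among H2A genes Hist3h2a was first, with 18.3 and 17.1 against 10.8 and 13.8, and here both DKO libraries were below both WT libraries. Hist2h4 led the H4 genes in WT cells, with 23.0 and 14.8, but had 9.84 and 8.997 in DKO cells.

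**Figure D2:**
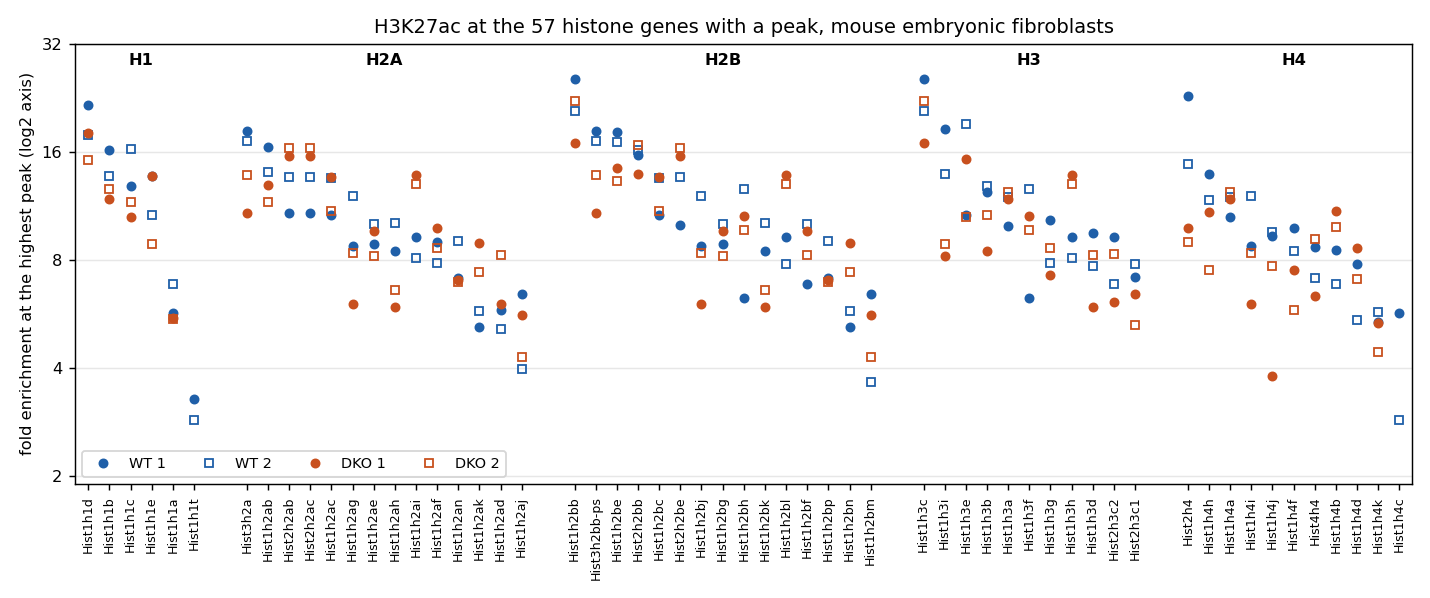
H3K27ac fold enrichment at the highest peak of each of the 57 histone genes with a peak in MEFs, on a log2 axis, grouped by family and ordered within it by the WT mean. Blue symbols are WT and orange DKO libraries (circles, replicate 1; squares, replicate 2), and genes that share a peak show the same values. Of the 55 genes with a value in every library, the DKO symbols lie wholly below the WT symbols at 22, wholly above at 10 and among them at 23.

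The 13 histone genes without any H3K27ac peak fall into a few kinds. Of these, 8 lie in repeated sequence: over 50% of the 75-base words in their windows occur more than once in mm9. They are Hist1h2bq, Hist1h2br, Hist1h2ao, Hist1h2ap, Hist1h4m, Hist1h4n, Hist2h2aa1 and Hist2h2aa2. None of the 8 had an H3K27ac peak, against 57 of the other 62 genes. A read that matches several places cannot be assigned to one of them, and the part of this in the missing peaks was not tested. The remaining 5 were Hist1h2ba and Hist1h2aa, which encode the testis variants of H2B and H2A, together with Hist3h2ba, Hist1h2al and Hist2h3b. In their windows between 2.95% and 19.97% of the words were repeated.

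**Figure D3:**
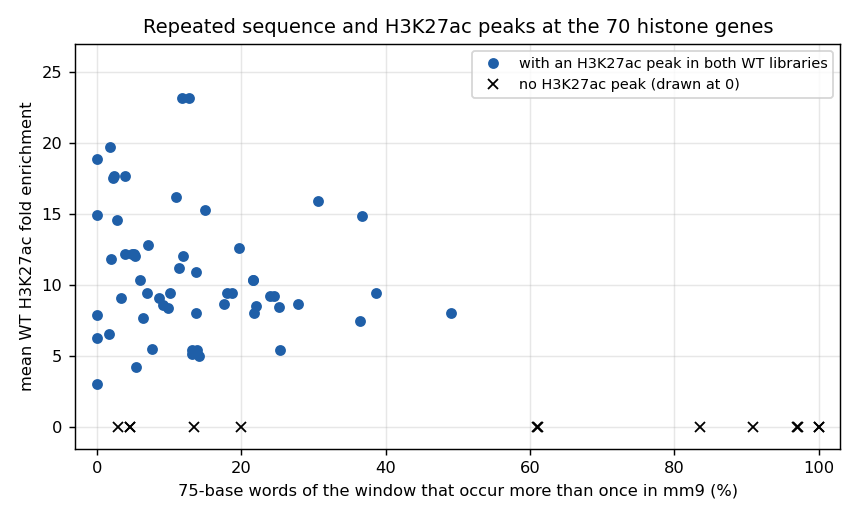
Percentage of 75-base words in each gene's window that occur more than once in mm9 (horizontal) against the mean H3K27ac fold enrichment of the 2 WT MEF libraries (vertical) for the 70 histone genes. Crosses at 0 are genes without a peak. Genes with a peak reach at most 48.996% repeated words, while 8 of the 13 genes without one lie between 60.9% and 100%.

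Few histone genes passed the test for a change in H3K27ac between genotypes. Of 55 histone genes with a peak in all 4 libraries, 2 were lower and 0 higher in DKO MEFs by limma with Benjamini-Hochberg adjustment, 3.64% and 0 against 8.56% and 2.98% of all 11921 genes tested. At an unadjusted p below 0.05, 17 of the 55 passed, beside 26.8% of all genes. Both DKO values lay below both WT values at 22 of the 55 genes and above them at 10, or at 58.2% together, beside 55.2% of all genes tested. These shares are near those of all genes. Hist2h4 fell by 0.97 on the log2 scale (standard error, SE, 0.22, adjusted p = 0.00718 in limma). Hist1h3i, an H3 gene, had 18.6 and 13.9 in WT versus 8.20 and 8.88 in DKO cells, and fell by 0.91 (SE 0.22, limma adjusted p = 0.00973). The value of a gene is that of its highest peak in each library, so it can come from different sites, as in DKO replicate 1 here. Both calls were lost without WT replicate 1, where 650 of 11992 genes were lower. They were also lost, with 0 of 55 called, when stacked reads over the lowest background of the library were compared in place of fold enrichment, a comparison that called only 83 of 11920 genes lower and 52 higher. With each library centred on its median, 2 of the 55 were lower and 3 higher, beside 412 and 535 of 11921 genes, and without the variance trend 2 were lower and 3 higher, beside 800 and 245. The DKO libraries had more stacked reads at the histone genes, and a higher median local background, 3.06 and 3.13 reads against 2.45 and 2.21. The median log2 change of the 55 genes was −0.17, against −0.10 over all genes tested, and 35 of the 55 values were negative, 63.6% beside 62.2% of all genes. On the scale of stacked reads these medians were −0.04 and −0.07, with 30 of the 55 values negative, 54.5% beside 63.9%. Hist1h1t and Hist1h4c had a peak in both WT libraries but not in DKO, which is 2 of the 57 genes with any peak, against 1.80% of all genes with a peak. In the reverse direction there were 0 histone genes, against 0.734% of all genes. With peaks of q of at most 0.0001 alone, the count of 2 became 0, beside 1.78% of all genes.

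Brd3, a BET protein that reads acetylated histones, was called at many histone genes in WT MEFs and at few in DKO MEFs. A Brd3 peak was found at 29 and 33 histone genes in the WT libraries and at 1 and 5 in the DKO libraries. The DKO libraries thus stand well below the WT libraries, without overlap. Over all genes the shares were 47.2% in both WT libraries and 23.1% and 28.5% in the DKO libraries. Of the 41 histone genes with any Brd3 peak, 17 had one in both WT libraries but not in DKO, or 41.5%, against 25.9% of all genes with a Brd3 peak. The reverse held for 0 histone genes and for 0.0176% of all genes. Without WT replicate 1 the count was 29 of 34, beside 33.6% of all genes, and without the flanks 8 of 23, beside 28.3%. Counted by site, 16 of 46 Brd3 peaks were found in both WT libraries but not in DKO, beside 10731 of all 39745. The 17 genes were 4 H1, 2 H2A, 4 H2B, 2 H3 and 5 H4 genes.

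Brd3 peaks at histone genes were low. In the WT libraries the median fold enrichment at the highest peak of a histone gene was 5.30 and 5.31. Over all genes with a peak, whose windows are longer, it was 7.03 and 6.88. The peaks at histone genes rested on 12 to 36 stacked reads. The lowest background, a measure of depth, was 1.75 and 1.89 for WT versus 1.24 and 1.54 for DKO libraries, and its part in the missing peaks was not tested. Hist1h3c, highest for H3K27ac, had Brd3 at 7.96 and 7.03 in WT cells and no peak in DKO cells, while its H3K27ac peak remained. Hist1h1b, a linker histone gene, had 6.602 and 7.99 in WT cells, at different sites, and also no peak in DKO cells. Hist2h4 had 5.30 and 6.41 in WT cells and none in DKO cells. At Hist2h2ab and Hist2h2ac, a pair of H2A genes, a site with 6.69 and 8.82 in WT cells had no peak in DKO cells, and a second site had 3.56 and 3.68 in WT cells, none in DKO replicate 1 and 6.74 in DKO replicate 2. Hist1h2ab was the only histone gene with a Brd3 peak in all 4 libraries, at 7.22 and 8.45 in WT versus 5.29 and 7.61 in DKO cells. Its log2 change of −0.30 (SE 0.25) did not pass the threshold in limma with Benjamini-Hochberg adjustment (adjusted p = 0.361), the WT and DKO values overlap, and with each library centred it was 0.14.

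P300, an acetyltransferase for H3K27, had a single peak at the histone genes of MEFs, at Hist1h4k in WT replicate 2 (fold enrichment 5.47, 14 stacked reads). Over all genes it was found within 1000 bp of the start at 0.273% to 1.001%. H3K27me3, the mark of Polycomb repression, and histone H1 had 0 peaks at histone genes in all libraries. These lists are short, reaching at most 299 of all genes for H3K27me3 and 28 for H1, so a level under their calling threshold would not appear in them. CEBPB, a bZIP factor of fibroblasts and adipocytes, had peaks at 5 and 5 histone genes in WT and 3 and 3 in DKO cells, at 4 distinct sites. In the equal windows of 1000 bp around the gene start they lay at 4.29%, 4.29%, 2.86% and 2.86% of histone genes, beside 4.37%, 4.45%, 1.47% and 1.56% of all genes.

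The strongest CEBPB site lay at −148 bases from the start of Hist1h2bh, in a stretch shared with Hist1h3f. Its fold enrichment was 26.1 and 26.9 in WT versus 9.08 and 11.4 in DKO MEFs, with both DKO values far below both WT values. The log2 change was −1.38 (SE 0.17, limma adjusted p = 4.7e-14). The stretch of 101 bases at its summit is shown because it holds the sequence TTGCNNAA, a form of the C/EBP site, in capitals.
Hist1h2bh, chr13:23635326-23635426, plus strand: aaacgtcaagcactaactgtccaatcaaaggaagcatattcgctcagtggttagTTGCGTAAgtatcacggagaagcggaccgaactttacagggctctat
Of the 4 sites 2 held TTGCNNAA in this window, and so did 45.3% of all CEBPB sites. At Hist1h2bl a CEBPB site 1204 bases beyond the start had 10.98 and 14.9 in WT versus 13.3 and 15.8 in DKO cells (log2 change 0.19, SE 0.17). The groups overlap there, and the change did not pass (adjusted p = 0.307 in limma). Hist1h4h (6.52 and 7.81) and Hist1h2bc (5.83 and 5.53) had CEBPB peaks in WT cells alone, which is 2 of 5 genes, against 37.4% of all genes with a peak. Of the 3 histone genes tested, 2 were lower and 0 higher, beside 76.2% and 2.72% of all genes, and these shares are set by 2 sites.

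In ESCs the pluripotency factors Nanog, Sox2 and Oct4 met at a handful of places in the Hist1 cluster. Nanog peaks lay at 16, 16, 21 and 18 histone genes in WT 1, WT 2, DKO 1 and DKO 2. Sox2 peaks lay at 6, 6, 9 and 11, and Oct4 peaks at 5, 5, 8 and 7. Within 1000 bp of the gene start, 5.71% of histone genes had a Sox2 peak in each WT library, and 1.22% of all genes. For Nanog the shares in WT cells were 18.6% and 17.1%, beside 14.9% and 17.7% of all genes, and for Oct4 2.86% in both, beside 2.66% and 3.23%. In DKO cells the shares for Nanog were 22.9% and 20%, beside 28.1% and 28.3% of all genes. For Oct4 they were 7.14% and 4.29%, beside 8.70% and 10.6%, and for Sox2 8.57% and 12.9%, beside 2.36% and 2.76%. The sites were few: 24 for Nanog, 12 for Sox2 and 9 for Oct4, of which 15, 4 and 3 were called in all 4 libraries.

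The site with the highest values lay 542 bases beyond the start of the H2A gene Hist1h2an, within 1000 bp of the H2B gene Hist1h2bp as well. Nanog had a fold enrichment of 88.6 and 79.9 in WT versus 106 and 91.7 in DKO ESCs there. Sox2 had 37.9 and 42.98 against 60.5 and 53.8, and Oct4 31.8 and 28.9 against 50.7 and 49.2. For all 3 factors both DKO values were above both WT values. The log2 changes were 0.23 for Nanog (SE 0.09, adjusted p = 0.0759), 0.50 for Sox2 (0.10, adjusted p = 7.91e-04) and 0.72 for Oct4 (0.14, adjusted p = 9.65e-07), all from limma with Benjamini-Hochberg adjustment. The stretch of 101 bases at the Nanog summit is shown because no other site at a histone gene reached its fold enrichment for any factor. It holds neither CATTGT, the core of the SOX site, nor ATGCAAA, the larger part of the octamer, on either strand, so nothing is in capitals.
Hist1h2an and Hist1h2bp, chr13:21878495-21878595, plus strand: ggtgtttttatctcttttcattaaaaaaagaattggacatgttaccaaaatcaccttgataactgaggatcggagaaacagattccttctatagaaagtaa
Over all sites CATTGT lay within 50 bases of the summit at 14.1% of Nanog and 21.0% of Sox2 sites. Among the histone genes it did so at 2 of 24 and 3 of 12.

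Other places called for more than 1 of the factors lay near Hist1h4k, Hist1h4d, Hist1h4b, Hist1h4j, Hist1h3f and Hist1h2bb, within the long annotated body of Hist1h2be, and before Hist1h2al. At Hist1h4k, 1292 bases beyond the start, Oct4 had 17.8 and 18.4 in WT versus 30.1 and 38.9 in DKO cells. Nanog at that place had 22.7 and 19.9 against 25.9 and 24.9, and Sox2 5.93 and 9.86 against 12.3 and 14.6. Within Hist1h2be, Sox2 had 10.98 and 12.6 against 23.2 and 24.6, the largest Sox2 change among the histone genes (log2 1.03, SE 0.18, limma adjusted p = 2.31e-04). Its second site in that gene was called in the DKO libraries alone, and with the mean over the gene's peaks the change was −0.02 (adjusted p = 0.968 in limma). Nanog at the same place had 45.2 and 38.3 against 63.1 and 55.7. Oct4 had 12.5 and 13.8 against 22.5 and 22.1 at a site shared by Hist1h4d and Hist1h2be, where Nanog had 5.09 and 6.63 against 7.73 and 4.83 with overlapping groups. Before Hist1h2al, Nanog had 25.6 and 31.2 against 46.5 and 49.8 (log2 0.77, SE 0.12, limma adjusted p = 4.71e-04). Sox2 rose there as well, and Oct4 was called in the DKO libraries alone, at 7.42 and 10.2. The other places did not all go the same way. At Hist1h4b, 809 bases beyond the start, Nanog had 17.9 and 15.8 against 10.9 and 10.6, and Sox2 at that place had 5.46 and 6.48 in WT cells, no peak in DKO replicate 1 and 4.54 in DKO replicate 2. At Hist1h3f Nanog had 5.63 and 6.88 against 8.66 and 10.4, which did not pass as a site (adjusted p = 0.0669 in limma), and at Hist1h2bb it had 6.52 and 8.78 against 8.23 and 5.99, with overlapping groups.

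All 5 histone genes tested for Oct4 were higher in DKO cells, 100%, where 88.1% of the 3136 genes tested were higher and 0.287% lower. Their median log2 change, 0.77, was below that over all genes, 0.95. When each library was centred on its median, 0 of the 5 were higher, beside 619 of 3136 genes, and the median became −0.21, which is a change relative to all genes. Genes share sites, and by site, without centring, 3 of 3 were higher for Oct4, beside 85.6% of all Oct4 sites. For Sox2 all 5 were higher, against 33.1% higher and 3.28% lower over 2501 genes, with a median of 0.76 against 0.35. By site 4 of 4 were higher for Sox2, beside 33.0% of all Sox2 sites. After centring 1 of the 5 was still called, beside 276 of 2501 genes, with the mean over a gene's peaks 2, beside 194, and without the variance trend 3, beside 752. Nanog was mixed: of 16 histone genes 3 were higher and 1 lower, or 18.8% and 6.25%, against 17.5% and 14.2% of 8576 genes. With the replicate number as a block, 7 of the 16 were higher, beside 1694 of the 8576 genes. The gene with lower Nanog was Hist1h4b (log2 −0.64, SE 0.17, limma adjusted p = 0.0122). This call was lost without WT replicate 1 and without either DKO replicate. Hist1h4j rose for Nanog, at 3.98 and 4.51 against 10.4 and 5.84 (log2 0.88, SE 0.28, limma adjusted p = 0.0285). The value of DKO replicate 2 came from another site than the rest, and the site 1470 bases beyond the start alone had 5.23 in that library and did not pass (log2 0.80, adjusted p = 0.0617 in limma). Without DKO replicate 1 there was 1 higher call, beside 693 of 8716 genes, and without WT replicate 2 or DKO replicate 2 there were 5, beside 1515 of 9027 and 805 of 8677. Sox2 had 3 higher calls of 5 without DKO replicate 2, beside 543 of 2521 genes.

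A few peaks at histone genes were called in both DKO libraries but not in WT. Nanog had 1 such gene of 22, Hist2h3c1, against 10% of all genes with a peak. Sox2 had 3 of 12, Hist1h4j, Hist1h2bh and Hist1h3f, against 15%, and Oct4 1 of 9, Hist1h2al, against 27.6%. Without DKO replicate 2 the counts for Nanog and Oct4 became 5 of 21 and 3 of 8, beside 14.8% and 39.9% of all genes. Without DKO replicate 1 they became 2 of 18 and 2 of 7, beside 1913 of 12723 and 3434 of 7656 genes, and that for Sox2 became 5 of 11, beside 27.5%. These Sox2 peaks were weak, with a fold enrichment of at most 5.59, and with peaks of q of at most 0.0001 alone the count of 3 became 0, beside 15.4% of all genes. In equal windows around the gene start, the DKO-only genes were 0 of 17 for Nanog, 3 of 9 for Sox2 and 1 of 5 for Oct4. Over all genes these windows gave 1675 of 7817, 120 of 771 and 871 of 2721. Of the octamer-bearing H2B genes, Hist1h2bb alone had an Oct4 peak, in DKO replicate 1 (fold enrichment 4.76, 794 bases beyond the start). Hist1h4b had one in the same library alone (5.04). An exact octamer lay within 50 bases of the summit at 1 of the 9 Oct4 sites, that of Hist1h4j, called in DKO replicate 2 alone (7.04), and at 10.6% of all Oct4 sites. Klf4, a zinc finger factor of the same network, had peaks at 3, 0, 6 and 2 histone genes and at none of them in all 4. The same counts lay within 1000 bp of a start, and were 4.29%, 0, 8.57% and 2.86% of histone genes, beside 5.85%, 3.38%, 5.14% and 6.17% of all genes. Its highest value was 7.76 at Hist1h2al in WT replicate 1, with 5.50 and 5.32 in the DKO libraries and none in WT replicate 2. In DKO replicate 1 it also had 6.32 at Hist1h2an and Hist1h2bp and 5.28 at Hist1h4j, and Hist1h4d had 5.32 in DKO replicate 2. Hist1h4a and Hist1h3a shared a Klf4 peak of 5.12 in WT replicate 1 and 3.40 in DKO replicate 1.

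**Figure D4:**
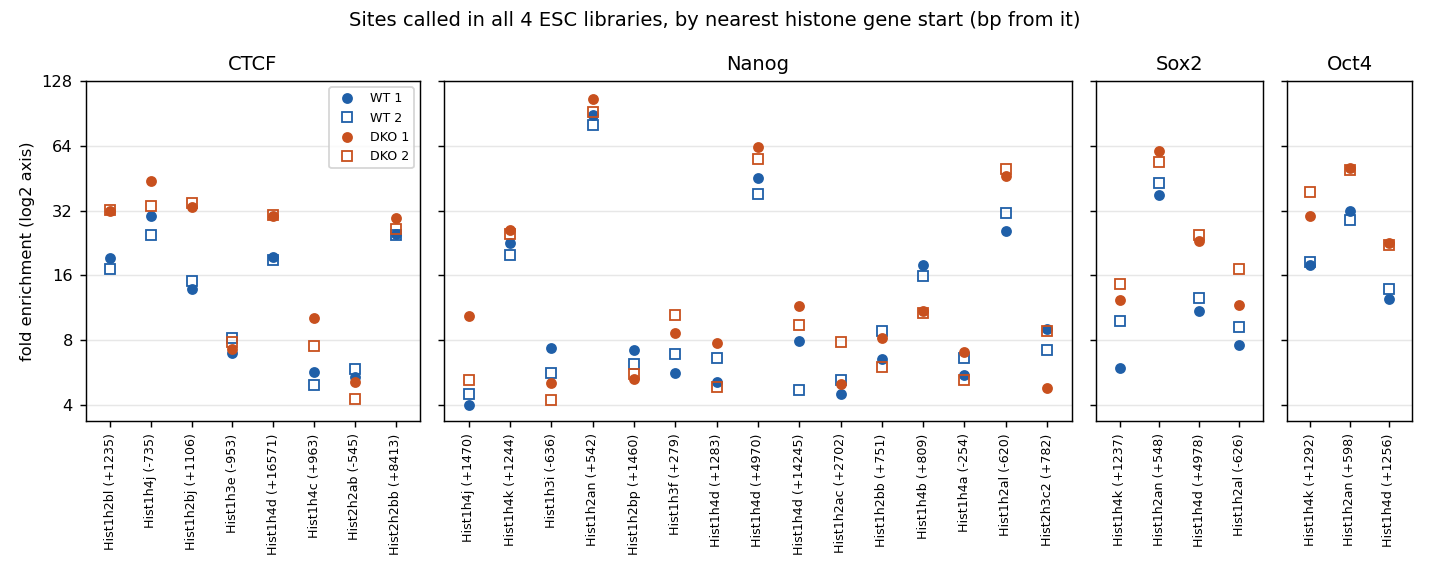
Fold enrichment (log2 axis) of the sites at histone genes that were called in all 4 ESC libraries, for CTCF, Nanog, Sox2 and Oct4. Sites are named by the nearest histone gene start, with the distance of the summit from it in bp, and blue symbols are WT, orange DKO (circles, replicate 1; squares, replicate 2). The DKO symbols lie above the WT symbols at all Sox2 and Oct4 sites, and 5 of the 8 CTCF sites were called higher by limma.

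CTCF, the insulator protein, had several sites at histone genes that were higher in DKO ESCs. Peaks lay at 12, 11, 14 and 16 histone genes. Within 1000 bp of the gene start these were 8.57%, 8.57%, 12.9% and 14.3% of histone genes, and 17.5% to 19.7% of all genes. Of 10 histone genes with a peak in all 4 libraries, 6 were higher and 0 lower by limma, 60.0% against 24.6% higher and 24.9% lower over 11925 genes. The median log2 change was 0.58, with 0.00 over all genes. The 10 genes share sites, and counted by site 5 of 8 were higher, beside 24.7% of all CTCF sites. With the mean over a gene's peaks 2 of the 10 were called, beside 1187 of 11925 genes. Without the 1000 bp flanks only 2 histone genes could be tested, and 1 was called, beside 2669 of 10837 genes. Without WT replicate 2 there were 3 calls of 10, beside 2685 of 12015 genes, and without DKO replicate 1 there were 3 of 11, beside 2156 of 11980.

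The largest CTCF change was beside the H2B gene Hist1h2bj, 1106 bases beyond its start. CTCF had 13.9 and 15.1 in WT versus 33.2 and 34.8 in DKO ESCs, and the log2 change was 1.23 (SE 0.10, limma adjusted p = 3.05e-04). At Hist1h2bl the values were 19.3 and 17.1 against 31.9 and 32.4 (log2 0.83, SE 0.10, limma adjusted p = 9.3e-04). A weaker site shared by Hist1h1t and Hist1h4c had 5.68 and 4.97 against 10.2 and 7.54 (log2 0.72, SE 0.21). In each of these the groups do not overlap. Within Hist1h2be CTCF had 19.5 and 18.8 against 30.3 and 30.6, and before Hist1h4j 30.1 and 24.7 against 43.8 and 33.7. The sites of the Hist2 cluster did not pass the test. Hist2h2bb had 25.0 and 24.8 in WT versus 29.5 and 26.2 in DKO cells (log2 change 0.16, SE 0.10, limma adjusted p = 0.211). The summit stretches of the strongest site and of the most changed site are shown, with CCACNAG, part of the CTCF motif, in capitals (here read on the minus strand).
Hist1h4j, chr13:21826118-21826218, plus strand: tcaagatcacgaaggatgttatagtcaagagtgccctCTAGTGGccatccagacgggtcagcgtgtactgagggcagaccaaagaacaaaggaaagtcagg
Hist1h2bj, chr13:22136139-22136239, plus strand: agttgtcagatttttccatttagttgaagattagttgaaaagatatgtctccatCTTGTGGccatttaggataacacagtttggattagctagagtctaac
CCACNAG lay at 6 of 15 CTCF sites of the histone genes and at 22.0% of all CTCF sites. Peaks in both DKO libraries but not in WT were found at 3 of 17 histone genes, Hist3h2a, Hist3h2bb-ps and Hist1h4f, against 1.70% of all genes with a CTCF peak. Hist3h2a and Hist3h2bb-ps share their sites. The windows of all genes are longer, and within 1000 bp of the gene start there were 3 of 11, beside 219 of 4812 of all genes. These peaks were weak, between 3.86 and 6.32, and without DKO replicate 1 there were 5 such genes of 17, beside 2.81%. The reverse held for 0 histone genes, against 0.575% of all genes, or for 1 of 15 without DKO replicate 2, against 131 of 13064 genes.

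**Figure D5:**
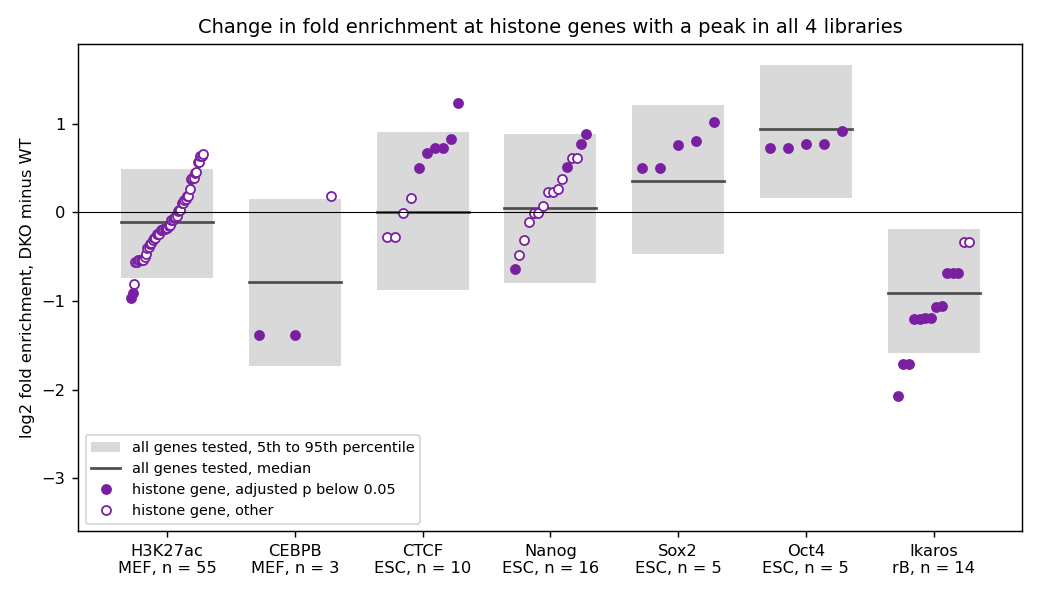
Log2 change in fold enrichment (DKO minus WT) at histone genes with a peak in all 4 libraries, for 7 antibodies. Each circle is a histone gene, filled where the adjusted p from limma is below 0.05, the grey box spans the 5th to the 95th percentile of all genes tested and the line is their median. Histone genes lie mostly above the line for CTCF, where the medians are 0.58 and 0.00, and below it for Oct4, with 0.77 and 0.95.

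In resting B cells IKAROS, a zinc finger factor of lymphoid cells, was the antibody with most peaks at histone genes. Peaks lay at 20 and 23 histone genes in WT and at 16 and 14 in DKO cells, or 28.6%, 32.9%, 22.9% and 20%, and at 10.6% to 20.04% of all genes. Within 1000 bp of the gene start the same 4 counts stood beside 8.12% to 15.8% of all genes. Of the 48 neighbouring genes 1 had an IKAROS peak in each library. The genes with a peak in WT replicate 2 were 3 of 6 H1, 6 of 20 H2A, 7 of 19 H2B, 6 of 12 H3 and 1 of 13 H4 genes.

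The highest IKAROS values lay in the Hist2 cluster and at Hist1h2ac and Hist1h2bc. At Hist2h2ab and Hist2h2ac the highest IKAROS peak had a fold enrichment of 20.4 and 22.4 in WT versus 6.23 and 6.85 in DKO cells (log2 −1.71, SE 0.20, limma adjusted p = 8.14e-08). The 6.85 belongs to another site of the pair, and Hist2h2be, which shares the site of the other values, had 20.4 and 22.4 against 6.23 and 4.14 (log2 −2.07, SE 0.22, limma adjusted p = 2.22e-08). At Hist1h3c and Hist1h2bb the values were 15.7 and 13.7 against 5.82 and 7.03 (log2 −1.20, SE 0.22, limma adjusted p = 2.2e-05). The peak of Hist1h2bc and Hist1h2ac had 15.6 and 23.1 against 7.62 and 9.07. The linker histone gene Hist1h1c had 11.04 and 7.41 against 3.98 and 4.67, where the last value comes from another site and the site of the rest had 4.17. At each of these genes both DKO values lay below both WT values.

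Most genes tested had lower IKAROS values. Of 14 histone genes tested 12 were lower and 0 higher, or 85.7%, against 83.2% and 0.184% of the 2171 genes tested, a share near that of other genes. The median log2 change was −1.13, beside −0.91 over all genes, and after centring each library 3 of the 14 were lower, beside 195 of 2171 genes. Peaks in both WT libraries but not in DKO were found at 4 of 23 histone genes (Hist1h2bl, Hist1h2ai, Hist1h3h and Hist1h1d), against 23.7% of all genes with a peak, and the reverse at 0, against 0.108%. Without WT replicate 1 the 4 became 7, beside 41.3% of all genes. The DKO lists of IKAROS could not be solved for stacked reads, so their depth is unknown. TGGGAA, an IKAROS site, lay within 50 bases of the summit at 2 of 27 sites of the histone genes and at 10.2% of all IKAROS sites.

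OCT2, the POU factor of B cells, had few peaks at all, 72 and 65 per WT list versus 10 and 18 per DKO list. At 4 histone genes it had a peak: Hist1h2bc and Hist1h2ac, a divergent H2B and H2A pair, and Hist3h2bb-ps and Hist3h2a, another such pair. The peak of Hist1h2bc and Hist1h2ac had a fold enrichment of 6.50 and 7.11 in the WT libraries and was not called in either DKO library. It rested on 36 stacked reads in WT replicate 1 and 33 in WT replicate 2. Hist3h2bb-ps and Hist3h2a had 4.11 in WT replicate 2 and no peak in the other 3 lists. The summits lay at −96 and −56 bases from the starts of the H2B genes, over the octamers shown above. Both sites held the exact octamer within 50 bases of the summit, as did 30.3% of the 89 OCT2 sites of the 4 libraries. Of the 16 histone genes with an octamer in the promoter, 4 had an OCT2 peak in any library.

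The WT-only OCT2 peak covers 2 of 4 histone genes with a peak, and 4 of 4 without WT replicate 1, beside 84.6% of all genes with a peak. Over all genes 25 of 51 with an OCT2 peak, 49%, had it in both WT libraries but not in DKO, a share like that of the histone genes. Within 1000 bp of the gene start, OCT2 peaks lay at 2 and 4 histone genes and at 26 and 22 of all 22370 genes in the WT libraries. Depth of the DKO lists is unknown, and its part was not tested. Of the other B cell factors, ETS1 had a peak at Hist1h2be (6.24) and Hist1h1e (5.86) in WT replicate 2 alone, and IRF8 and PAX5 had 0 peaks at histone genes, in lists that reached at most 467 and 182 of all genes.

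The replacement histone genes, many of which are transcribed throughout the cell cycle, encode related proteins. Of 11 listed, 10 were found, and all 10 had an H3K27ac peak in every MEF library. By limma 2 of the 10 were lower and 0 higher in DKO cells, beside the 8.56% and 2.98% of all genes. H2afx, whose product is phosphorylated at DNA breaks, had 26.6 and 23.2 in WT versus 12.6 and 11.05 in DKO cells (log2 −1.07, SE 0.18, limma adjusted p = 0.00111). H3f3a, a gene of the replacement H3, had 24.6 and 27.8 against 17.2 and 16.6 (log2 −0.63, SE 0.17, limma adjusted p = 0.0178), and H3f3b, which encodes the same protein, had 17.04 and 17.7 against 23.3 and 25.4, which did not pass (adjusted p = 0.0622 in limma). In ESCs 5 of these genes were tested for Nanog, and 1 was higher and 1 lower, beside 17.5% and 14.2% of all genes. The higher was H2afx, where Nanog rose from 4.14 and 3.62 to 19.6 and 19.2 (log2 2.33, SE 0.21, limma adjusted p = 8.23e-06).

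Of 22 genes for histone gene transcription and mRNA processing factors, 20 had an H3K27ac peak in every MEF library. By limma 1 of the 20 was lower and 1 higher, beside the same 8.56% and 2.98%. The lower was Sympk, the scaffold of the 3′ end processing complex, at 14.7 and 14.9 in WT versus 6.79 and 8.58 in DKO cells (log2 −0.96, SE 0.22, limma adjusted p = 0.00735). The higher was Nfya, the DNA-binding subunit of NF-Y, at 21.6 and 16.3 against 30.3 and 26.8 (log2 0.60, SE 0.17, limma adjusted p = 0.0252). Npat had 12.6 and 11.5 against 13.05 and 8.30, with overlapping groups. The stem-loop binding protein gene Slbp had 20.3 and 23.2 against 27.6 and 25.9, which did not pass (adjusted p = 0.236 in limma). Pou2af1, the gene of the coactivator of OCT2 in B cells, had IKAROS at 21.1 and 23.0 in WT versus 8.72 and 9.15 in DKO cells (log2 −1.30, SE 0.19, limma adjusted p = 1.41e-06). Of 7 such genes tested for IKAROS, 6 were lower and 0 higher, a share near the 83.2% lower among all genes tested.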

How the data were processed

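ChIP-seq peak lists of 64 libraries were used, of 72 samples in the labels. The other 8 are input libraries, not used here. Libraries were sequenced with 75 or 101 base reads. Per the submitters' processing notes the tools were bcl2fastq 1.8.4, cutadapt 1.16, BWA 07.17 and MACS2 2.1.1.20160309, with the mm9 build. The deposited lists give, for each peak of a single library, the authors' fold enrichment and the −log10 of p and q. Fold enrichment is a ratio of stacked reads to the local background, with 1 added to both. The lowest deposited −log10 q was 2.00, so signal under this threshold is missing and not 0, and fold enrichment moves with background and depth.

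Peaks were joined to genes of GENCODE vM1 with 1000 bp flanks, and the highest fold enrichment was kept per gene. Genes with a peak in all 4 libraries of an antibody were compared (DKO minus WT) on the log2 scale with limma 3.58.1 in R 4.3.3, with a trended variance and Benjamini-Hochberg adjustment over all genes tested, threshold 0.05. Each antibody was fitted alone. Stacked reads were solved from fold enrichment and p where at least 85% of peaks gave whole numbers, within 0.0005 of the −log10 p. Motifs were sought on both strands in 300 bases at each gene start, and within 50 bases of summits. Python 3.11.15 and pysam 0.24.0 were used. The calculations were tested on simulated data.

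For each antibody with 5 or more histone genes tested, the 4 with the largest change among those past the threshold are named, and otherwise those with a peak, up to 6, or 15 for OCT2 and Oct4. The gene with the highest H3K27ac in each family is also named. Others are named as examples. The members, lists and this rule were chosen with earlier results of these data known. Equal windows, sites in place of genes, counts of genes whose groups do not overlap, and stacked reads over the lowest background were added after seeing the data.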

Additional observations from a re-analysis of the deposited data

How the results depend on the processing

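The largest called changes of each antibody, 24 pairs of gene and antibody, were followed by name. They were chosen from the same data, so a kept direction is no independent support. The pairs gave 277 values under the alternatives, of which 272 kept their direction and 232 were called. The reversed ones were Sox2 at Hist1h2be with the mean over the gene's peaks (log2 −0.02, adjusted p = 0.968 from limma) and Oct4 with each library centred, at Hist1h4k (−0.055, adjusted p = 0.768), Hist1h2be and Hist1h4d (−0.21, adjusted p = 0.29) and Hist1h2an (−0.25, adjusted p = 0.0899). The median of the histone genes turned to −0.21 for Oct4 with centring and to −0.034 for Nanog without flanks, and the single gene tested for Brd3, Hist1h2ab, turned to 0.14 with centring. Centring sets the median of all genes to near 0, so it removes a change common to all. Of 277 counts under the alternatives, 226 stayed within 1.5 times of the value reported. Counts of 0 that stayed 0 are among these, and they could hardly move. The cause of the other moves was not tested. In what follows, each count of histone genes stands with the share or number of all genes (or sites) called in the same direction under the same alternative.

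Without flanks none could be tested for CEBPB or Oct4, so their counts of 0 are no lost calls. The counts were 1 of 2 for CTCF higher (24.6%), 1 of 6 higher (17.9%) and 1 lower (14.7%) for Nanog, 2 of 2 for Sox2 (33.1%) and 6 of 7 for Ikaros lower (81.3%). The WT-only peaks without flanks were at 1 of 48 genes for H3K27ac (246 of 12949), 8 of 23 for Brd3 (28.3%), 1 of 1 for CEBPB (36.8%) and 0 of 1 for Oct2 (43.8%). With the mean over peaks, limma called 0 histone genes lower for H3K27ac (8 at an unadjusted p below 0.05) and 0 of all 11921 genes. There were 2 higher for CTCF (9.95%), 0 lower and 0 higher for Nanog (1.91% and 1.06%; 6 at an unadjusted p below 0.05) and 2 higher for Sox2 (7.76%). With centring, 3 were higher for H3K27ac (4.49%), 1 for CEBPB (26.9%), 1 for Sox2 (276 of 2501) and 0 for Oct4 (19.7%), and 3 lower for Ikaros (8.98%). Without the variance trend, 3 were higher for H3K27ac (2.06%) and 3 for Sox2 (30.1%). With a peak in at least 2 libraries and missing values set to the lowest of the list, 4 of 5 were lower for CEBPB (77.2%) and 17 of 22 for Brd3 (38.9%), where genes with peaks in WT libraries alone enter, which favours lower values by construction. By site, 4 of 62 were lower for H3K27ac (2367 of 42234 sites) and 1 of 2 for CEBPB (67.7%), and 3 of 3 higher for Oct4 (85.6%). With stacked reads over the lowest background, 0 were lower for H3K27ac by limma (0.696%), 1 at an unadjusted p below 0.05. With q of at most 0.0001 the WT-only count for H3K27ac was 0 (1.78%) and the DKO-only count for Sox2 was 0 (15.4%). With the summit in the window 1 gene was WT-only for CTCF (0.575%).

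Leaving out each library in turn gave 0 to 3 lower for H3K27ac (5.42% to 6.83%), 3 to 6 higher for CTCF (18.0% to 22.3%), 0 to 1 lower (8.87% to 12.5%) and 1 to 5 higher (7.95% to 16.8%) for Nanog, 3 to 5 higher for Sox2 (21.5% to 30.6%) and 9 to 14 lower for Ikaros (1648 to 1819 genes). The WT-only counts ranged from 17 to 29 for Brd3 (31.8% to 42.0%), 0 to 1 for CTCF (131 to 180 genes), 4 to 7 for Ikaros (1208 to 1861 genes) and 2 to 4 for Oct2 (49% to 86.0%). The DKO-only counts ranged from 3 to 5 for CTCF (2.39% to 3.09%), 1 to 5 for Nanog (13.6% to 15.8%), 3 to 5 for Sox2 (20.8% to 27.5%) and 1 to 3 for Oct4 (31.0% to 44.9%).

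Same-numbered WT and DKO libraries did not deviate together from gene to gene (correlations over 12 antibodies between −0.07 and 0.04). The mean deviation was removed first, so a shared level or depth would not show, and a common preparation was not tested. With the replicate block, 7 of 16 histone genes were higher for Nanog in place of 3, beside 1694 and 1498 of 8576 genes.

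Signal under the authors' threshold is not in the lists, and with 2 libraries a genotype the spread is poorly known.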
